A study of Homo sapiens with 74 samples.

Results

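Messenger RNA of HEK293T cells transfected with DamV133A-LMNB1 was set against messenger RNA of HEK293T cells transfected with m6A-Tracer, over all genes of the deposited RNA table. The members were the 4 libraries whose labels name these transfections, 2 for each construct, out of 74 samples in the series and 8 RNA libraries. The table held 39037 genes, of which 17740 passed the filter on low counts and were tested. HEK293T is an established human line of embryonic kidney origin.

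The series maps contacts of the genome with the nuclear lamina, in single cells on a microfluidic device and in bulk. The DamV133A-LMNB1 group carried Dam, a bacterial adenine methyltransferase, with the V133A substitution and fused to lamin B1. The m6A-Tracer group carried m6A-Tracer, a fluorescent reader protein that binds methylated adenine in GATC sites, with neither Dam nor lamin B1. The other RNA groups, used here only beside these, carried DamV133A without lamin B1 or received no construct, with 2 libraries each. The labels describe transient transfection with FuGene HD and 20 hours of the ligand Shield-1 at 1 mM, a dose printed as the labels write it and not checked here against another source. That protocol is written for Dam-LMNB1 together with m6A-Tracer, and whether each RNA group received the ligand is not stated. Transfection was transient, so each library pools the RNA of cells that took up the plasmid and cells that did not. In such bulk RNA a change in the number of cells that carry a transcript and a change in the amount per cell cannot be told apart. Nothing in the labels makes the 2 libraries of a group separate cultures, and the spread that the p-values measure may therefore be technical.

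Lamin B1 is a farnesylated intermediate filament protein that lines the inner nuclear membrane and to which large, gene-poor stretches of chromosomes are attached. Cells keep its amount within narrow bounds, and duplication of LMNB1 in humans causes a demyelinating disease. Fusing Dam to lamin B1 leaves adenine methylation on the DNA that touches the lamina. The comparison asks which transcripts differ in cells that carry this fusion from cells that carry a construct with neither of its parts.

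Library totals ran from 39690886 to 51455298 estimated counts, and the tested genes held 99.96% of all counts. Markers of the line were present in all 8 libraries, with VIM at 586 to 791, CDH2 at 95.6 to 129 and KRT18 at 57.4 to 75.1 CPM (counts scaled to a library total of 1000000; these marker ranges are without TMM factors), while PAX8 did not exceed 0.137 CPM and KRT19 did not exceed 0.101 CPM. The 2 DamV133A-LMNB1 libraries stood further from each other than the libraries of any other group. Among genes of 10 CPM or more, the median absolute log2 difference within the pair was 0.18 for DamV133A-LMNB1, 0.04 for DamV133A, 0.04 for m6A-Tracer and 0.04 for untreated cells. The chi-square of the paired counts per degree of freedom, which counting error alone would put near 1, was 51.8 for DamV133A-LMNB1, 3.03 for DamV133A, 3.25 for m6A-Tracer and 4.76 for untreated cells. Results for gene groups are therefore given for each DamV133A-LMNB1 library by itself as well.

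Of the 17740 genes tested, 10 were higher in DamV133A-LMNB1 cells (0.0564%) and 31 were lower (0.175%) by edgeR's quasi-likelihood test at a Benjamini-Hochberg adjusted p under 0.05. LMNB1 itself led the higher genes, with FKBP1A second by adjusted p. Lower genes comprised 9 of the 13 protein-coding genes of mitochondrial DNA and 22 other genes, among them the immediate early gene EGR1. Called genes differed mostly by less than a factor of 2, and only 4 of the higher and 4 of the lower genes passed 2-fold. A further 3563 genes had an adjusted p between 0.05 and 0.10, so the number of calls depended strongly on the setting. With the threshold at 0.10, chosen after the values were seen, edgeR called 2103 genes higher (11.9%) and 1501 lower (8.46%). DESeq2 called 1534 higher (12.9%) and 1017 lower (8.55%) of the 11893 genes to which it gave an adjusted p. All 41 genes called by edgeR kept their direction under DESeq2, which gave an adjusted p to 37 of them and called all 37. When edgeR was fitted to the 4 libraries compared alone, it called 1 gene higher, LMNB1, and 0 lower. The other 40 calls, FKBP1A included (edgeR adjusted p = 0.065 in that fit), thus rest on the spread shared over all 8 libraries. Leaving out 1 library also moved the count of edgeR calls, to 8378 without DamV133A-LMNB1 library 1, 2757 without DamV133A-LMNB1 library 2, 5 without either DamV133A library, 2 without either m6A-Tracer library and 7 without either untreated library. The 41 genes kept their direction in all 8 of these fits. For each of the 41, both DamV133A-LMNB1 libraries lay on the same side of both m6A-Tracer libraries. A kept direction, here or under DESeq2, could therefore hardly fail and is no support for the calls.

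In the same fit, DamV133A-LMNB1 against DamV133A gave 2258 genes higher (12.7%) and 1340 lower (7.55%), a split that turned to 1458 higher and 2363 lower when libraries were scaled by their totals alone. DamV133A against m6A-Tracer gave 9 higher (0.0507%) and 13 lower (0.0733%), m6A-Tracer against untreated cells 1352 higher (7.62%) and 829 lower (4.67%), and DamV133A-LMNB1 against untreated cells 2019 higher (11.4%) and 1342 lower (7.56%). When only the 4 libraries of a comparison were fitted, DamV133A-LMNB1 against DamV133A gave 1 higher and 0 lower. DamV133A against m6A-Tracer then gave 1016 higher and 977 lower, so the order of these counts depends on which libraries share the spread. These comparisons share libraries with the one reported here, and only values of its genes are set beside it.

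**Figure D1:**
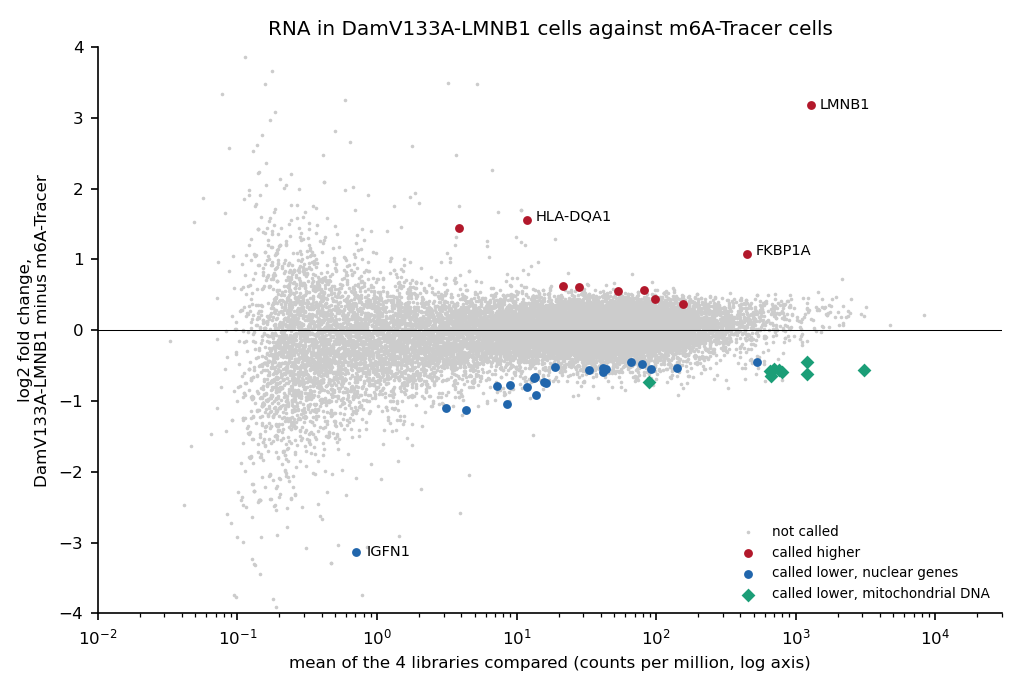
Each point is 1 of the 17740 tested genes, at its mean over the 4 libraries compared (x, CPM, log axis) and its fitted log2 fold change, DamV133A-LMNB1 minus m6A-Tracer (y). Coloured points are the 41 called genes: LMNB1 stands alone at 3.18, and the 9 called genes of mitochondrial DNA lie together below 0 at high levels; 46 genes of low level lie outside the y range of 4 and 2 outside the x range.

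LMNB1 (chromosome 5) was the check of the labels, since the fusion contains its coding sequence. Its level was 2548 and 2056 CPM in the DamV133A-LMNB1 libraries, against 251 and 257 CPM in the m6A-Tracer libraries. Every DamV133A-LMNB1 library lay far above every m6A-Tracer library, as the labels require. The difference was 3.18 ± 0.09 (log2, SE), or 9.06-fold, with an edgeR quasi-likelihood adjusted p of 1.15e-05, and it was called under every setting tried. DamV133A cells had 250 and 253 CPM and untreated cells 767 and 768 CPM, so both groups transfected without lamin B1 lay below the untreated libraries. The difference of m6A-Tracer minus untreated was -1.59 (edgeR adjusted p = 1.9e-04), and that of DamV133A-LMNB1 minus untreated was 1.58 ± 0.09 (edgeR adjusted p = 1.51e-04). The size of the LMNB1 excess thus depends on which cells it is measured against. Reads of the plasmid and of the chromosomal gene are counted together and cannot be told apart in a table per gene.

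FKBP1A (chromosome 20) encodes FKBP12, the immunophilin bound by rapamycin and FK506, and Shield-1 is a ligand made for a destabilised version of that protein. Its level was 626 and 584 CPM in DamV133A-LMNB1 cells, against 291 and 285 CPM in m6A-Tracer cells. DamV133A cells had still more, 853 and 844 CPM, and untreated cells had 359 and 356 CPM. The 4 groups did not overlap, and both groups whose constructs contain Dam were above both groups without it. The difference was 1.07 ± 0.05 (log2, SE), or 2.10-fold, with an edgeR adjusted p of 1.67e-04 for DamV133A-LMNB1 minus m6A-Tracer, and -0.49 with an edgeR adjusted p of 0.018 for DamV133A-LMNB1 minus DamV133A. Whether the plasmids supply these reads was not tested, since the constructs' sequences were not used here. Among the other 13 tested FKBP immunophilins none was called by edgeR, and their log2 differences ran from -0.40 for FKBP11 to 0.34 for FKBP2. DESeq2 called 3 of these 13 higher and none lower, FKBP2, FKBP3 and FKBP8, beside 12.9% of all genes with a DESeq2 adjusted p called higher.

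Of the 8 remaining higher genes, some were as high in DamV133A cells and some were not. TRPM4, a cation channel opened by intracellular calcium, had 25.5 and 26.6 CPM in DamV133A-LMNB1 cells, against 16.6 and 17.3 CPM in m6A-Tracer cells. DamV133A cells had 27.9 and 27.5 CPM, which put TRPM4 among the genes higher in DamV133A than in m6A-Tracer cells as well (0.62 and 0.71 on the log2 scale, edgeR adjusted p = 0.019 for both). NR2C2AP, named for its binding to the orphan receptor TR4, had 31.9 and 36.2 CPM in DamV133A-LMNB1 cells, against 22.3 and 22.4 CPM in m6A-Tracer cells. With 35.4 and 35.3 CPM in DamV133A cells, it showed the same order, at log2 differences from m6A-Tracer of 0.61 for DamV133A-LMNB1 (edgeR adjusted p = 0.029) and 0.66 for DamV133A (edgeR adjusted p = 0.031).

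ITM2C, a type II membrane protein related to the one altered in familial British dementia, had 107 and 119 CPM in DamV133A-LMNB1 cells, against 83.7 and 82.7 CPM in m6A-Tracer cells. DamV133A cells had 81.1 and 83.2 CPM, close to the m6A-Tracer level, and untreated cells had 97.6 and 99.4 CPM. ITM2C was higher in DamV133A-LMNB1 cells than in m6A-Tracer cells by 0.45 ± 0.06 (edgeR adjusted p = 0.043) and than in DamV133A cells by 0.46 (edgeR adjusted p = 0.018). RASSF1, which encodes a Ras-association tumour suppressor, had 93.4 and 102 CPM in DamV133A-LMNB1 cells, against 66.3 and 66.4 CPM in m6A-Tracer cells (0.56 ± 0.06, edgeR adjusted p = 0.019). DamV133A cells had 87.4 and 85.4 CPM of RASSF1, and DamV133A-LMNB1 minus DamV133A was 0.18 (edgeR adjusted p = 0.066). Untreated cells held far less RASSF1, 34.3 and 34.5 CPM. It had thus already risen in m6A-Tracer cells relative to no transfection (0.95, edgeR adjusted p = 2.8e-04). CYB5R1, a reductase of the cytochrome b5 reductase family, had 59.6 and 66.3 CPM in DamV133A-LMNB1 cells, against 43.8 and 42.4 CPM in m6A-Tracer cells (0.55 ± 0.07, edgeR adjusted p = 0.029). DamV133A cells lay between, with 57.0 and 57.3 CPM.

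ATF3, a stress-induced bZIP transcription factor, had 177 and 175 CPM in DamV133A-LMNB1 cells, against 138 and 135 CPM in m6A-Tracer cells. The groups did not overlap, and the difference of 0.37 ± 0.05 (edgeR adjusted p = 0.031) was the smallest among the higher genes. DamV133A cells had 163 and 158 CPM of ATF3, and untreated cells had 167 and 169 CPM. DamV133A-LMNB1 minus untreated was 0.06 ± 0.05 (edgeR adjusted p = 0.38), so the low group here was m6A-Tracer. HLA-DQA1, an MHC class II chain, had 20.1 and 15.3 CPM against 4.69 and 7.30 CPM in the called row, but its symbol has 6 rows in the table for alternative haplotype sequences. Summed over the 6 rows it had 26.7 and 21.7 CPM in DamV133A-LMNB1 cells, against 13.2 and 15.2 CPM in m6A-Tracer cells. The sums in DamV133A cells were 22.1 and 20.4 CPM, and the split between rows makes the fold of HLA-DQA1 uncertain. CTC-429P9.4 is not described by the annotation used here. It had 5.46 and 5.89 CPM in DamV133A-LMNB1 cells, against 1.96 and 2.19 CPM in m6A-Tracer cells (1.45 ± 0.14, edgeR adjusted p = 0.018). DamV133A cells had 2.88 and 3.30 CPM of it.

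**Figure D2:**
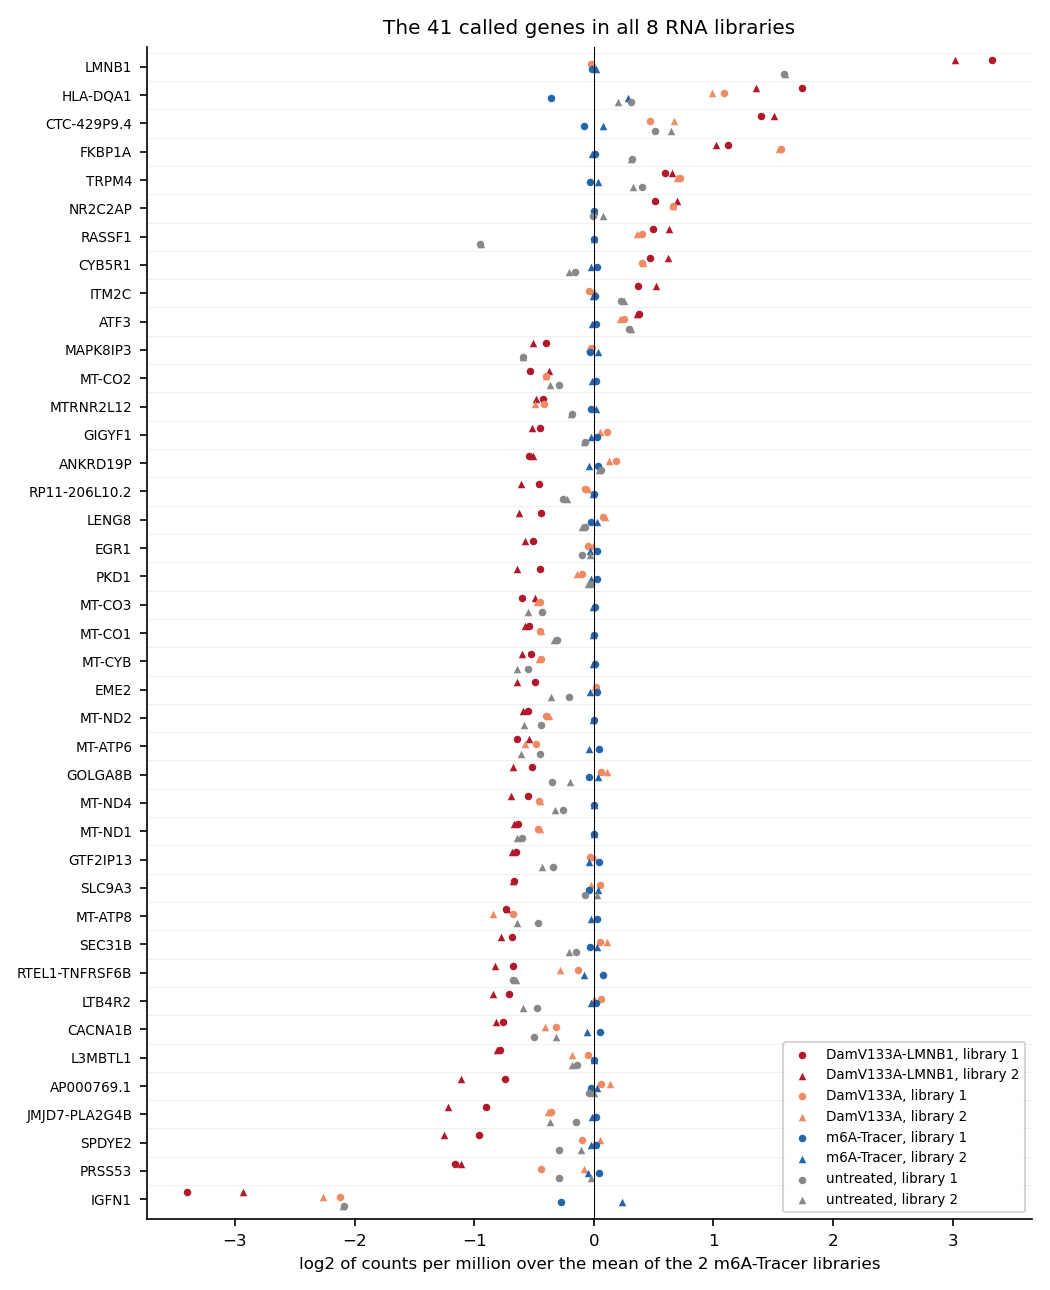
Rows are the 41 called genes, ordered by fold change, and points are the 8 RNA libraries (circles library 1, triangles library 2), as the log2 ratio of CPM to the mean of the 2 m6A-Tracer libraries (x). For mitochondrial genes the DamV133A (orange) and untreated (grey) points lie on the same side as the DamV133A-LMNB1 points (red), while for EGR1, GIGYF1 and SEC31B they lie near 0, at the level of m6A-Tracer (blue).

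Mitochondrial DNA encodes 13 proteins, all subunits of the respiratory chain or ATP synthase, and its genes are transcribed inside the organelle. MT-CO1, the catalytic subunit of cytochrome c oxidase, had 2524 and 2467 CPM in DamV133A-LMNB1 cells, against 3683 and 3666 CPM in m6A-Tracer cells. Both DamV133A-LMNB1 libraries were lower than both m6A-Tracer libraries, by 0.56 ± 0.03 on the log2 scale (edgeR adjusted p = 0.0013). DamV133A cells had 2697 and 2706 CPM and untreated cells 2962 and 2916 CPM of MT-CO1, so the m6A-Tracer libraries were the highest of the 8. MT-ND1, a core subunit of complex I, had 520 and 509 CPM in DamV133A-LMNB1 cells, against 807 and 808 CPM in m6A-Tracer cells, and fell by 0.65 ± 0.04 (edgeR adjusted p = 0.0013). Its DamV133A libraries had 584 and 592 CPM and its untreated libraries 532 and 517 CPM. MT-ND4 fell by 0.62 and MT-ND2 by 0.57 among complex I subunits, MT-CYB of complex III by 0.56, MT-CO3 and MT-CO2 of complex IV by 0.55 and 0.45, and the ATP synthase subunits MT-ATP8 and MT-ATP6 by 0.73 and 0.59, with edgeR adjusted p between 0.0089 and 0.031.

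The 4 mitochondrial genes that edgeR did not call were MT-ND3, MT-ND4L, MT-ND5 and MT-ND6. MT-ND4L had 120 and 79.6 CPM in DamV133A-LMNB1 cells, against 185 and 192 CPM in m6A-Tracer cells (-0.91 ± 0.16, edgeR adjusted p = 0.06). For MT-ND5 the libraries had 516 and 392 CPM with DamV133A-LMNB1, against 747 and 751 CPM with m6A-Tracer (-0.72, edgeR adjusted p = 0.057). In both genes the 2 DamV133A-LMNB1 libraries differed from each other by more than the 2 m6A-Tracer libraries, yet stayed below them. MT-ND6, the only one of the 13 encoded on the light strand, had 196 and 227 CPM, against 275 and 268 CPM (-0.36, edgeR adjusted p = 0.065). MT-ND3 had 196 and 249 CPM in DamV133A-LMNB1 cells, against 244 and 236 CPM in m6A-Tracer cells, and was the only one of the 13 whose groups overlapped. Over the 13 genes the median log2 difference was -0.57, against -0.02 over all tested genes. Below both m6A-Tracer libraries lay 12 of 13, as did 30.5% of all tested genes. Of all genes to which DESeq2 gave an adjusted p, it called 8.55% lower. The number of the 13 called by edgeR was 12 without DamV133A-LMNB1 library 1, 13 without DamV133A-LMNB1 library 2, 2 without either DamV133A library, 0 without either m6A-Tracer library and 5 without either untreated library, and DESeq2 called 12.

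Taken as a share of all counts, the 13 genes made up 0.836% and 0.803% in DamV133A-LMNB1 cells, 0.936% and 0.931% in DamV133A cells, 1.26% and 1.25% in m6A-Tracer cells and 0.940% and 0.895% in untreated cells. The 2 DamV133A-LMNB1 libraries agreed on this decrease, with medians over the 13 genes of -0.55 and -0.59 below the m6A-Tracer mean. The DamV133A libraries had medians of -0.46 and -0.45 and the untreated libraries of -0.31 and -0.37 against the same mean. MTRNR2L12, a nuclear gene on chromosome 3 that is a near copy of mitochondrial 16S rRNA, had 454 and 435 CPM in DamV133A-LMNB1 cells, against 600 and 617 CPM in m6A-Tracer cells (-0.45 ± 0.05, edgeR adjusted p = 0.019). Reads of the 2 copies may be shared, so its value is uncertain, and likewise nuclear copies of mitochondrial DNA can share reads with the 13 genes.

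**Figure D3:**
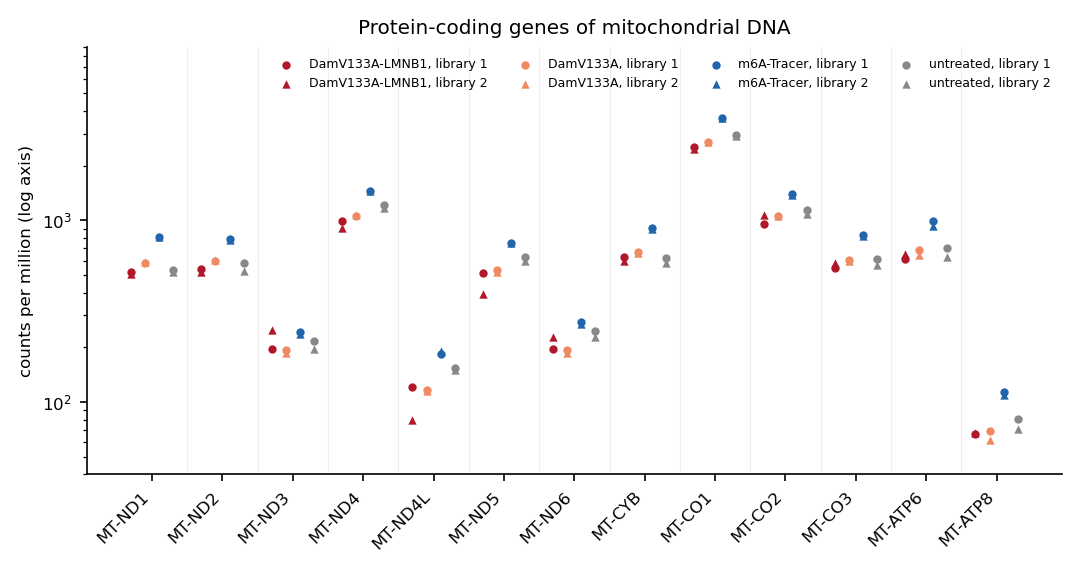
Levels (CPM, log axis) of the 13 protein-coding genes of mitochondrial DNA in the 8 RNA libraries (circles library 1, triangles library 2). For MT-CO1 the DamV133A-LMNB1 libraries (red) had 2524 and 2467 and the m6A-Tracer libraries (blue) 3683 and 3666; blue points are the highest in every gene except MT-ND3.

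Respiratory chain subunits encoded in the nucleus did not share this direction. Of 45 such genes tested, 43 lay above both m6A-Tracer libraries and none below both, where 29.4% of all tested genes lay above both. The median log2 difference was 0.32, and edgeR called none of the 45. DESeq2 called 35 higher and none lower, beside 12.9% and 8.55% of all genes. NDUFA1, an accessory subunit of complex I, had 72.8 and 90.2 CPM in DamV133A-LMNB1 cells, against 63.5 and 63.3 CPM in m6A-Tracer cells (0.36 ± 0.09, edgeR adjusted p = 0.066). NDUFA2 of the same complex had 59.6 and 73.8 CPM, against 50.9 and 51.9 CPM (0.37, edgeR adjusted p = 0.067). In both genes library 2 of DamV133A-LMNB1 was the higher one, and the median over the 45 genes was 0.18 in library 1 and 0.47 in library 2. The DamV133A libraries had medians of -0.12 and -0.15 and the untreated libraries of 0.19 and 0.20. DamV133A-LMNB1 library 1 thus lay near the untreated level.

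Cytosolic ribosomal protein genes, the short and abundant messages of the translation machinery, also lay above m6A-Tracer. Here DamV133A-LMNB1 library 1 stayed below the untreated level. All 80 had a positive difference, with a median of 0.35, and 79 of 80 lay above both m6A-Tracer libraries, beside 29.4% of all tested genes. EdgeR called none of the 80, while DESeq2 called 75 higher and none lower, where it called 12.9% of all genes higher. RPSA had 1765 and 2253 CPM in DamV133A-LMNB1 cells, against 1588 and 1595 CPM in m6A-Tracer cells (0.34 ± 0.09, edgeR adjusted p = 0.072). RPS3 had 1535 and 1976 CPM, against 1328 and 1271 CPM (0.43, edgeR adjusted p = 0.065). The median was 0.18 in library 1 and 0.50 in library 2 of DamV133A-LMNB1, -0.18 and -0.22 in the DamV133A libraries, and 0.38 and 0.34 in the untreated libraries.

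A set of very long messages lay on the other side of m6A-Tracer, by unequal amounts in the 2 DamV133A-LMNB1 libraries. A list of 40 genes with very long mRNAs, drawn up after the values were seen and given no test, had 40 of 40 members below both m6A-Tracer libraries, beside 30.5% of all tested genes. EdgeR called none of the 40, and DESeq2 called 16 lower, beside 8.55% of all genes. Since the members were listed with these values known, the counts describe the list and are no test of message length. The list's median against the m6A-Tracer mean was -0.30 in library 1 and -1.12 in library 2 of DamV133A-LMNB1. It was 0.02 and 0.08 in the DamV133A libraries, and -0.12 and -0.07 in the untreated libraries. KMT2D, a histone H3 lysine 4 methyltransferase, had 148 and 76.8 CPM in DamV133A-LMNB1 cells, against 193 and 205 CPM in m6A-Tracer cells. KMT2A, of the same family, had 162 and 86.0 CPM, against 202 and 216 CPM. In both genes library 2 lay further below library 1 than library 1 lay below the m6A-Tracer libraries. Whether message length had a part in the values of the ribosomal, respiratory chain and other gene groups was not tested.

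**Figure D4:**
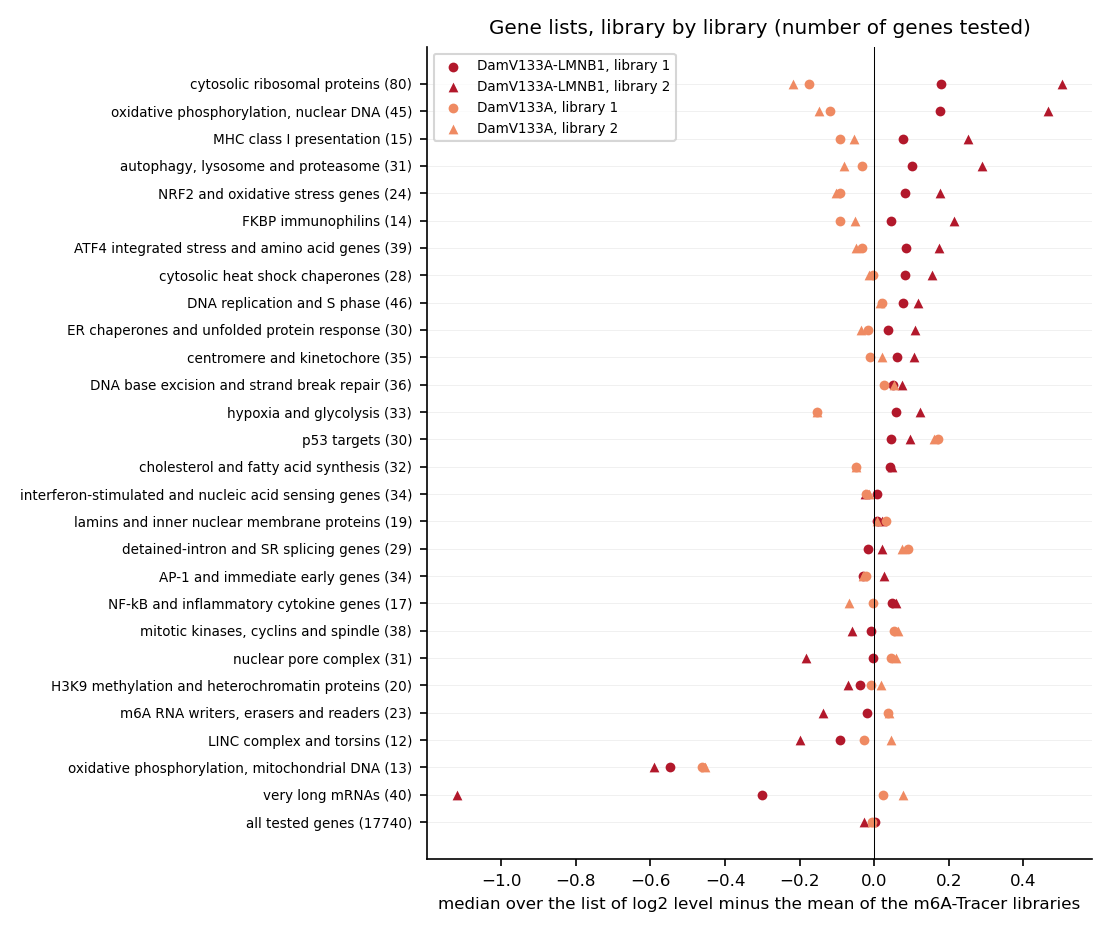
Median over each gene list (rows, with the number of genes tested) of the log2 level in 1 library minus the mean of the m6A-Tracer libraries (x), for the DamV133A-LMNB1 (red) and DamV133A (orange) libraries (circles library 1, triangles library 2). DamV133A-LMNB1 library 2 lies further from 0 than library 1 for ribosomal proteins (0.50 and 0.18) and very long mRNAs (-1.12 and -0.30), while the libraries are close for mitochondrial DNA (-0.59 and -0.55).

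EGR1 is a zinc finger transcription factor whose gene is switched on within minutes of growth factor signalling, through CArG boxes in its promoter that bind serum response factor. Its 250 bases before the start given by RefSeq (GRCh38.p14, chr5:138465229-138465478, plus strand) are shown because it was the only called gene with such a box, with the 2 boxes in capitals.
EGR1: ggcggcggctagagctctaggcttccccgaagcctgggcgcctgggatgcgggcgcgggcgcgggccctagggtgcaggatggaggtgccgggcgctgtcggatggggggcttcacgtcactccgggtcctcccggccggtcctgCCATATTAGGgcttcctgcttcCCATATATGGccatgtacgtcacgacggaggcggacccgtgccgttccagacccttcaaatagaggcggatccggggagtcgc
The boxes begin 105 and 83 bases before the start. At least 1 CArG box (a pattern that is its own reverse complement, so a match on 1 strand is a match on the other) was found in 1.16% of the 35116 promoter windows of this length in the table, and at least 2 in 0.0313%. Of the 24 called genes with a window in the table, 1 held a box.

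EGR1 had 36.2 and 34.5 CPM in DamV133A-LMNB1 cells, against 52.4 and 50.4 CPM in m6A-Tracer cells. Both DamV133A-LMNB1 libraries were the lowest of the 8, since DamV133A cells had 49.6 and 51.0 CPM and untreated cells 48.0 and 50.3 CPM. The difference was -0.54 ± 0.06 from m6A-Tracer (edgeR adjusted p = 0.021), -0.51 from DamV133A (edgeR adjusted p = 0.018) and -0.48 ± 0.06 from untreated (edgeR adjusted p = 0.0027). Of the 34 tested AP-1 and immediate early genes edgeR called EGR1 lower, ATF3 higher and no other, and the median of the list was 0.00. DESeq2 called 3 of them higher, ATF3 included, and EGR1 alone lower, beside 12.9% and 8.55% of all genes. FOS, a subunit of the AP-1 factor, had 11.6 and 11.3 CPM in DamV133A-LMNB1 cells, against 11.6 and 12.5 CPM in m6A-Tracer cells (-0.07 ± 0.08, edgeR adjusted p = 0.56). Its relative FOSB had 9.40 and 8.51 CPM, against 10.7 and 10.2 CPM (-0.22, edgeR adjusted p = 0.15).

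Several lower nuclear genes had, like EGR1, a level in DamV133A cells close to that in m6A-Tracer cells. SEC31B, a coat protein of vesicles that leave the endoplasmic reticulum, had 12.2 and 11.5 CPM in DamV133A-LMNB1 cells, against 19.2 and 20.1 CPM in m6A-Tracer cells. The difference was -0.73 ± 0.08 (edgeR adjusted p = 0.019), and DamV133A cells had 20.3 and 21.2 CPM. L3MBTL1, a chromatin protein that binds methylated histone lysines, had 8.75 and 8.59 CPM, against 15.0 and 15.1 CPM (-0.80 ± 0.08, edgeR adjusted p = 0.019), with 14.6 and 13.3 CPM in DamV133A cells. SLC9A3, a sodium and proton exchanger, had 10.4 and 10.3 CPM against 16.1 and 16.9 CPM (-0.67 ± 0.08, edgeR adjusted p = 0.029), with 17.1 and 16.2 CPM in DamV133A cells. In these 3 genes the DamV133A-LMNB1 libraries lay below the other 6. SLC9A3 has 2 rows in the table, which summed to 10.3 and 9.96 CPM in DamV133A-LMNB1 cells, against 16.3 and 17.2 CPM in m6A-Tracer cells.

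Other lower genes named by their size were uncertain for their annotation. GOLGA8B belongs to a family of near-identical golgin genes on chromosome 15 (34.8 and 31.3 CPM in DamV133A-LMNB1 cells, against 48.6 and 51.2 CPM in m6A-Tracer cells). GTF2IP13 is a pseudogene of the transcription factor gene GTF2I (10.6 and 10.4 CPM, against 17.1 and 16.2 CPM), and AP000769.1 is not described by the annotation used here (10.7 and 8.30 CPM, against 17.6 and 18.2 CPM). RTEL1-TNFRSF6B is a readthrough transcript whose exons overlap those of its 2 neighbours (12.8 and 11.5 CPM, against 21.6 and 19.3 CPM). Their log2 differences ran from -0.91 for AP000769.1 to -0.59 for GOLGA8B, each with an edgeR adjusted p of 0.028 to 0.031. Untreated cells had 12.8 and 13.0 CPM of RTEL1-TNFRSF6B, close to the DamV133A-LMNB1 level, and DamV133A cells had 18.6 and 16.8 CPM.

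The other 13 lower genes, named here after their values were seen, had differences of -3.14 to -0.45. GIGYF1, which takes part in translational repression with the cap-binding protein 4EHP, had 67.3 and 64.3 CPM in DamV133A-LMNB1 cells, against 93.5 and 90.6 CPM in m6A-Tracer cells (-0.48 ± 0.05, edgeR adjusted p = 0.021). PKD1, the polycystin gene mutated in polycystic kidney disease, had 79.9 and 69.7 CPM, against 111 and 107 CPM (-0.54 ± 0.07, edgeR adjusted p = 0.031), and shares sequence with its pseudogenes. MAPK8IP3, a scaffold of the JNK kinase pathway, had 58.1 and 54.1 CPM, against 75.1 and 78.4 CPM (-0.45 ± 0.06, edgeR adjusted p = 0.031). Untreated cells had 50.9 CPM of MAPK8IP3 in both libraries, which was below the DamV133A-LMNB1 level. IGFN1, an immunoglobulin-domain protein of muscle, had 0.12 and 0.17 CPM, against 1.04 and 1.48 CPM, and its large fold of -3.14 rests on few counts. DamV133A cells had 0.29 and 0.26 CPM of IGFN1 and untreated cells 0.30 and 0.29 CPM. The m6A-Tracer libraries were thus the highest of the 8, and m6A-Tracer minus untreated was 2.08 (edgeR adjusted p = 0.011). The remaining 9 were ANKRD19P, RP11-206L10.2, LENG8, EME2, LTB4R2, CACNA1B, JMJD7-PLA2G4B, SPDYE2 and PRSS53, with differences of -1.13 to -0.53. LENG8 has 4 rows in the table; summed, they held 129 and 112 CPM in DamV133A-LMNB1 cells, against 181 and 182 CPM in m6A-Tracer cells.

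The values just inside the threshold were those of SPDYE2 (edgeR adjusted p = 0.048) and PRSS53 (0.049), and just outside it CFAP44 (-0.82 ± 0.12, edgeR adjusted p = 0.0501) and CHD3 (-0.38, edgeR adjusted p = 0.057).

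EdgeR called no gene of the nuclear envelope other than LMNB1, while DESeq2 called some in each list. Of all tested genes edgeR called 0.0564% higher and 0.175% lower, so short lists like these would seldom hold a call. Of the 19 tested genes for lamins, inner nuclear membrane proteins and the enzymes that process lamins, LMNB1 alone passed edgeR's test. Above both m6A-Tracer libraries lay 7 of the 19 and below both 6, beside 29.4% and 30.5% of all tested genes. The median was 0.02. DESeq2 called LMNB1, BANF1 and RCE1 higher and none lower, beside 12.9% and 8.55% of all genes. LMNB2, the second B-type lamin, had 407 and 400 CPM in DamV133A-LMNB1 cells, against 417 and 419 CPM in m6A-Tracer cells (-0.05 ± 0.04, edgeR adjusted p = 0.42). LMNA, the gene of lamins A and C, had 91.6 and 109 CPM, against 92.7 and 89.5 CPM, so its groups overlapped (0.14 ± 0.08, edgeR adjusted p = 0.28). LBR, the lamin B receptor that holds heterochromatin at the inner membrane, had 342 and 330 CPM, against 351 and 343 CPM (-0.05 ± 0.05, edgeR adjusted p = 0.51). TMPO, which encodes the LAP2 proteins, had 389 and 377 CPM, against 376 and 380 CPM. BANF1, the small DNA-bridging protein that links chromatin to LEM-domain proteins, had the largest difference after LMNB1, with 193 and 245 CPM against 163 and 156 CPM (0.46 ± 0.10, edgeR adjusted p = 0.065).

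Farnesylation, cleavage and methylation of lamin B1 need FNTA, FNTB, RCE1 and ICMT, and prelamin A is cut by ZMPSTE24. FNTA had 79.6 and 77.8 CPM in DamV133A-LMNB1 cells, against 74.2 and 74.9 CPM in m6A-Tracer cells, and ICMT had 223 and 207 CPM, against 224 and 220 CPM. RCE1 had 35.3 and 48.4 CPM, against 32.7 and 32.9 CPM (0.35 ± 0.13, edgeR adjusted p = 0.11). None of the 5 was called by edgeR, and RCE1 alone was called by DESeq2 (adjusted p = 0.043).

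The LINC complex, which couples the lamina to the cytoskeleton through SUN and nesprin proteins, and the torsins had 0 of 12 tested genes called by edgeR and a median of -0.13. SUN1 had 121 and 112 CPM in DamV133A-LMNB1 cells, against 131 and 133 CPM in m6A-Tracer cells (-0.18 ± 0.05, edgeR adjusted p = 0.083). SYNE2, which encodes the giant nesprin-2, had 53.0 and 31.4 CPM, against 66.8 and 73.7 CPM (-0.73 ± 0.20, edgeR adjusted p = 0.07). SYNE1, for nesprin-1, had 22.9 and 14.1 CPM, against 25.5 and 24.7 CPM (-0.44 ± 0.18, edgeR adjusted p = 0.14). Both nesprin messages are very long, and both were lower in library 2 than in library 1 of DamV133A-LMNB1. DESeq2 called these 2 of the 12 genes lower and none higher, beside 8.55% and 12.9% of all genes. The nuclear pore complex had 0 of 31 genes called by edgeR, with a median of -0.07 that was 0.00 in library 1 and -0.18 in library 2. DESeq2 called 2 of the 31 higher, RAE1 and SEC13, and 8 lower, beside 12.9% and 8.55% of all genes. TPR, a filament protein of the nuclear basket named like RAE1 and SEC13 after its value was seen, was among the lower ones, with 408 and 262 CPM in DamV133A-LMNB1 cells, against 473 and 499 CPM in m6A-Tracer cells (-0.54, edgeR adjusted p = 0.085). It too was lower in library 2 than in library 1.

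Proteins that write and read H3K9 methylation, the mark of heterochromatin at the lamina, had 0 of 20 genes called by edgeR, with a median of -0.07. DESeq2 called 6 of the 20 lower and none higher, beside 8.55% and 12.9% of all genes. CBX5, which encodes HP1 alpha, had 233 and 171 CPM in DamV133A-LMNB1 cells, against 264 and 273 CPM in m6A-Tracer cells (-0.41, edgeR adjusted p = 0.076). ATRX, a chromatin remodeller, had 95.1 and 74.5 CPM, against 112 and 118 CPM (-0.44, edgeR adjusted p = 0.065). EHMT1, an H3K9 methyltransferase, had 84.5 and 87.3 CPM, against 98.5 and 101 CPM (-0.22, edgeR adjusted p = 0.066). CBX1 and CBX3, which encode the other HP1 proteins, lay above both m6A-Tracer libraries, with differences of 0.08 and 0.13. SUV39H1 had 48.2 and 55.9 CPM, against 46.9 and 47.4 CPM (0.14, edgeR adjusted p = 0.23).

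Where genes lie relative to the lamina was taken from the 4 bulk DamID libraries. Of 27944 bins of 100 kb, 9849 (35.2%) were methylated more by DamV133A-LMNB1 than by DamV133A and are called LAD bins, and 10119 (36.2%) were methylated less and are called iLAD bins, at an edgeR adjusted p under 0.05. Only protein-coding genes were placed in bins, 14445 of those tested, and 2 of the higher and 15 of the lower called genes, mitochondrial ones included, have no place. None of the 1215 tested genes placed in LAD bins was called in RNA by edgeR, against 22 of the 10218 in iLAD bins (0.215%) and 2 of the 3012 in the remaining bins (0.0664%). The difference between these shares was not tested. Genes in LAD bins had a median level of 5.15 CPM, against 32.4 CPM in iLAD bins, and low genes are harder to call. LMNB1 itself lay in an iLAD bin (chr5:126800001-126900000), as did EGR1 (chr5:138400001-138500000).

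The median log2 difference was -0.07 for genes in LAD bins, -0.04 in the remaining bins and 0.00 in iLAD bins. For LAD bins it was 0.01 in library 1 and -0.15 in library 2 of DamV133A-LMNB1, so the negative value rested on library 2. DESeq2 called 27 of the 1215 tested genes in LAD bins higher and 35 lower. In iLAD bins it called 1144 of 10218 higher and 646 lower. As shares of only those genes to which DESeq2 gave an adjusted p, this was 4.38% and 5.68% in LAD bins. The same shares were 14.5% and 8.18% in iLAD bins. The share of genes in LAD bins with 1 CPM or more was 42.1% and 41.1% in DamV133A-LMNB1 cells, against 41.9% and 42.2% in m6A-Tracer cells. The 2 DamV133A-LMNB1 libraries lay on either side of the lower m6A-Tracer library.

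**Figure D5:**
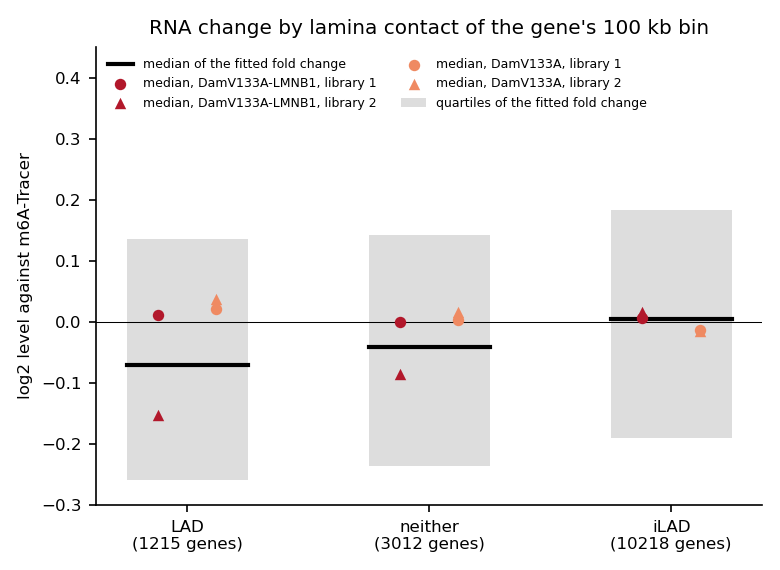
Fitted log2 fold change, DamV133A-LMNB1 minus m6A-Tracer (grey, the middle 50% of genes; black line, the median), for tested genes placed in LAD bins, remaining bins and iLAD bins, with the median of each DamV133A-LMNB1 (red) and DamV133A (orange) library against the m6A-Tracer mean (circles library 1, triangles library 2). In LAD bins DamV133A-LMNB1 library 1 sits at 0.01 and library 2 at -0.15.

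Stress and signalling lists gave few or no calls by edgeR, beside 0.0564% of all tested genes called higher and 0.175% lower. At these shares lists of this size would seldom hold a call, so its absence says little about them. Of 34 tested interferon-stimulated and nucleic acid sensing genes, which respond to foreign DNA in the cytosol, none was called by edgeR or DESeq2 and the median was 0.03. IFIT1 had 4.16 and 4.61 CPM in DamV133A-LMNB1 cells, against 4.49 and 4.14 CPM in m6A-Tracer cells, so the groups overlapped. Of 17 tested NF-kB and inflammatory genes edgeR called none and DESeq2 1 lower, and the inhibitor NFKBIA had 15.2 and 15.5 CPM, against 14.2 and 14.0 CPM (0.12 ± 0.08, edgeR adjusted p = 0.31). Of 30 p53 targets edgeR called none and DESeq2 called 8 higher and 1 lower, beside 12.9% and 8.55% of all genes. CDKN1A, which encodes the cell cycle inhibitor p21, had 60.3 and 65.5 CPM in DamV133A-LMNB1 cells, against 50.1 and 50.9 CPM in m6A-Tracer cells (0.32 ± 0.06, edgeR adjusted p = 0.065), while MDM2, the ubiquitin ligase of p53, had 123 and 121 CPM, against 138 and 139 CPM (-0.19, edgeR adjusted p = 0.074).

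Of 39 genes of the integrated stress response and amino acid supply, ATF3 alone was called by edgeR, and DESeq2 called 11 higher and 3 lower, beside 12.9% and 8.55% of all genes. ATF4, the factor at the centre of that response, had 933 and 1093 CPM in DamV133A-LMNB1 cells, against 859 and 861 CPM in m6A-Tracer cells (0.24 ± 0.07, edgeR adjusted p = 0.076), and DDIT3, a target of ATF4, had 11.7 and 14.3 CPM, against 11.9 and 12.6 CPM. Chaperones of the endoplasmic reticulum had 0 of 30 genes called by edgeR, and 4 higher and none lower by DESeq2. HSPA5, the lumenal Hsp70, had 683 and 716 CPM, against 717 and 703 CPM (-0.02 ± 0.04, edgeR adjusted p = 0.77). DNA replication genes had 0 of 46 called by edgeR, 9 higher and 1 lower by DESeq2, and a median of 0.11. MCM2, a subunit of the replicative helicase, had 484 and 506 CPM, against 460 and 457 CPM (0.11 ± 0.04, edgeR adjusted p = 0.13). Of 38 mitotic genes edgeR called none and DESeq2 called 4 higher and 7 lower, beside 12.9% and 8.55% of all genes, and the median was -0.02. CCNB1, the mitotic cyclin, had 261 and 286 CPM in DamV133A-LMNB1 cells, against 244 and 250 CPM in m6A-Tracer cells (0.15 ± 0.06, edgeR adjusted p = 0.12). CENPF, a large kinetochore protein named after its value was seen, had 255 and 169 CPM, against 324 and 334 CPM (-0.64, edgeR adjusted p = 0.065). Members above both m6A-Tracer libraries numbered 24 of 39 for the integrated stress response, 13 of 30 for the chaperones, 29 of 46 for replication and 14 of 38 for mitosis, beside 29.4% of all tested genes. Members below both numbered 9, 6, 7 and 16 in the same lists, beside 30.5% of all tested genes.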

How the data were processed

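RNA of HEK293T cells was measured in 8 libraries of 4 groups, set by the transfection labels. The authors deposited estimated counts per gene, not whole numbers, in 1 table with Ensembl identifiers and symbols per the file headers, and they were rounded here before testing. The authors also deposited whole-number coverage counts per 100 kb bin for 4 bulk DamID libraries, of which no scaling is stated, and a column of marks (other than a measurement) for their control bins. Salmon, limma and DESeq2, with Trimmomatic 0.39, bedtools 2.28, SAMtools 1.9 and BWA 0.7.15-r1140, and the builds hg38 and GRCh38, are listed in the submitters' processing notes with no role for any of them. The RNA library kit and its strand are not given in the sources used here, so antisense and overlapping genes cannot be told apart.

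The RNA test was edgeR 4.0.16 under R 4.3.3 (filterByExpr, TMM scaling, glmQLFit, glmQLFTest), in 1 fit of all 8 libraries, which share the estimate of the spread, at a Benjamini-Hochberg adjusted p under 0.05 over all 17740 genes tested. SE is the log2 fold change divided by the root of the F statistic. It thus rests on the spread shared over the 4 groups. Since the DamV133A-LMNB1 pair had a wider spread than the other pairs, SE can understate the uncertainty of this comparison. CPM are counts scaled to a library total of 1000000, with TMM factors. Bins were tested the same way over their 4 libraries. Genes were placed in bins by the midpoint of the RefSeq gene (GRCh38.p14), and the table's symbols were matched to current ones by Ensembl identifier for 34522 of 39037 rows. DESeq2 1.42.0 and limma 3.58.1 gave alternatives, and figures were drawn with matplotlib 3.10.9. The fit was tested on simulated data with known changes, in which all groups had the same spread for each gene. The wider spread of the DamV133A-LMNB1 pair was not imitated, so how the calls behave with such a pair was not tested.

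Genes were named by rule. The rule took LMNB1 and FKBP1A, and on each side the 10 largest log2 differences among called genes averaging 10 CPM or more. It also took the 8 smallest adjusted p on each side. Every list could give at most 4 called members, and lists longer than 20 gave their first 3 uncalled members. From lists of 20 or fewer any member could be named. Those shown from such short lists are thus a choice, and the other members are not all shown. The comparison, the gene lists and the alternatives were chosen with earlier results of these data known. Libraries of the same replicate number did not deviate together (r of 0.02 between the DamV133A-LMNB1 and m6A-Tracer pairs), so numbers were not used to pair them.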

Additional observations from a re-analysis of the deposited data

How the results depend on the processing

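LMNB1 stayed called and higher under all 18 alternatives that gave a fold change and a p, at log2 differences of 3.04 to 3.33, and FKBP1A under 17 of 18, with an adjusted p of 0.065 when the fit held the 4 libraries compared. All 41 called genes kept their direction under every alternative. Their DamV133A-LMNB1 libraries both lay on the same side of both m6A-Tracer libraries, so this could hardly fail and is no support. The counts of called genes did not hold, and the cause was not tested beyond what each alternative changes. Counts are given as higher, lower for DamV133A-LMNB1 minus m6A-Tracer (10, 31), DamV133A-LMNB1 minus DamV133A (2258, 1340) and DamV133A minus m6A-Tracer (9, 13). With the replicate block, which the check of the numbers did not call for, they were 3, 6, then 1421, 656, then 1, 0. Fits of the libraries of each comparison alone gave 1, 0, then 1, 0, then 1016, 977. No filter gave 2186, 1989, then a lower count of 2503, then 139, 191. DESeq2 gave 1534, 1017 for the first and 27, 30 for the third. Library totals gave 74 lower for the first and 1458, 2363 for the second. A threshold fold of 1.2 gave 3, 2, then 1, 0, then 1, 0, and an adjusted p under 0.01 gave 2, 3, then 1, 0, then 1, 0. Alternatives chosen after seeing the data gave 362, 186, then 1389, 815, then 650, 823 for limma voom with library weights, 42, 79 for the first with rows of 1 symbol summed, and 2103, 1501 for the first and 2724 lower for the second at an adjusted p under 0.10. Leaving out 1 library each gave 2 to 4531 higher and 0 to 3847 lower for the first, 1 to 4723 and 0 to 4233 for the second, and 1 to 1004 and 0 to 1200 for the third. The number of iLAD bins was 6635 without DamV133A bulk library 2, and the 4 fits without 1 bulk library gave 9006 to 9652 LAD and 6635 to 10155 iLAD bins. With DamV133A-LMNB1 reduced to 1 library, that library is assumed to vary like the other groups. With 2 libraries a group, a difference within the spread of the DamV133A-LMNB1 pair was not detectable.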

Other observations

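Gene groups not described above gave no calls by edgeR, beside 0.0564% of all tested genes called higher and 0.175% lower. At these shares lists of this size would seldom hold a call. Of all genes to which DESeq2 gave an adjusted p it called 12.9% higher and 8.55% lower, and of all tested genes 29.4% lay above both m6A-Tracer libraries. Of 31 autophagy, lysosome and proteasome genes edgeR called none and DESeq2 10 higher and none lower, 25 lay above both m6A-Tracer libraries and none below both, and the median log2 difference was 0.21 (0.10 in DamV133A-LMNB1 library 1 and 0.29 in library 2). SQSTM1, the autophagy receptor p62, had 177 and 210 CPM in DamV133A-LMNB1 cells, against 168 and 161 CPM in m6A-Tracer cells (0.23 ± 0.08, edgeR adjusted p = 0.10). Of 15 tested MHC class I presentation genes edgeR called none and DESeq2 2 higher and none lower, with a median of 0.24. HLA-C had 303 and 379 CPM, against 286 and 269 CPM (0.30, edgeR adjusted p = 0.087), and B2M, the light chain of class I molecules, had 77.6 and 89.9 CPM, against 71.2 and 71.1 CPM (0.23, edgeR adjusted p = 0.092). Of 24 tested NRF2 and oxidative stress genes edgeR called none and DESeq2 4 higher and 1 lower, and HMOX1, which degrades haem, had 43.7 and 53.2 CPM, against 43.0 and 44.3 CPM.

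Hypoxia and glycolysis genes had 0 of 33 called by edgeR, 6 higher and 1 lower by DESeq2, and a median of 0.07. HK2, a hexokinase, had 157 and 138 CPM in DamV133A-LMNB1 cells, against 177 and 172 CPM in m6A-Tracer cells (-0.24 ± 0.07, edgeR adjusted p = 0.071). Cytosolic heat shock chaperones had 0 of 28 called by edgeR, 4 higher and none lower by DESeq2, and a median of 0.11. Sterol and fatty acid synthesis genes had 0 of 32 called by edgeR, 6 higher and 1 lower by DESeq2, and a median of 0.03. HMGCS1 of the sterol pathway had 104 and 103 CPM, against 111 and 112 CPM (-0.10, edgeR adjusted p = 0.20). Of 36 base excision and strand break repair genes edgeR called none and DESeq2 called 7 higher and 5 lower. UNG, the uracil DNA glycosylase, had 143 and 153 CPM, against 123 and 120 CPM (0.28 ± 0.05, edgeR adjusted p = 0.065), and MPG, which removes alkylated adenine, had 61.9 and 80.2 CPM, against 49.3 and 52.8 CPM (0.48 ± 0.11, edgeR adjusted p = 0.065). Centromere and kinetochore genes had 0 of 35 called by edgeR, 6 higher and 3 lower by DESeq2, and a median of 0.07. Genes that write, erase and read m6A in RNA had 0 of 23 called by edgeR, 1 higher and 4 lower by DESeq2, and a median of -0.11. Detained-intron and SR splicing genes had 0 of 29 called by edgeR, 1 higher and 5 lower by DESeq2, and a median of 0.01. METTL3, the catalytic subunit of the m6A RNA methyltransferase, had 78.6 and 86.8 CPM in DamV133A-LMNB1 cells, against 78.6 and 76.2 CPM in m6A-Tracer cells.

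Markers of other cell types were summed over those that passed the filter on low counts. The 5 tested of 10 blood markers summed to 5.98 and 6.84 CPM in DamV133A-LMNB1 cells, against 5.23 and 4.78 CPM in m6A-Tracer cells. Sums over 3 of 6 endothelial markers were 1.30 and 0.757 CPM, against 1.83 and 1.58 CPM, and over 2 of 8 hepatocyte markers 0.857 and 0.473 CPM, against 0.768 and 0.730 CPM. The 7 tested of 8 fibroblast markers summed to 30.8 and 32.7 CPM, against 33.0 and 35.4 CPM, most of it from COL1A1, named after its value was seen. That collagen gene had 24.5 and 27.4 CPM in DamV133A-LMNB1 cells, against 25.4 and 27.1 CPM in m6A-Tracer cells, which is above some markers of the line such as GATA3 (11.9 to 16.0 CPM over the 8 libraries, without TMM factors). None of the tested blood, endothelial, fibroblast and hepatocyte markers was called by edgeR or DESeq2. Of 14 tested markers of the line, edgeR called none and DESeq2 called 1 higher and 1 lower, beside 12.9% and 8.55% of all genes.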
